A study of Caenorhabditis elegans with 2 samples.

Results

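The ELT-3 peaks described here are those whose summit lay between genes and close to the start of a protein-coding gene. A peak was included when its summit fell outside every protein-coding gene and from 1000 bases upstream to 200 bases downstream of the annotated start of a protein-coding transcript. Of the peaks that passed the authors' test of reproducibility between replicates (the irreproducible discovery rate, or IDR), 231 met this rule and 543 did not, a share of 29.8% (95% exact Clopper-Pearson interval 26.6 to 33.2). The 543 were 259 between genes but farther from a start, called distal here, 215 in introns and 69 in exons. Because a summit outside all genes is always upstream of the starts it is near, all 231 peaks lay upstream.

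ELT-3 was profiled by chromatin immunoprecipitation and sequencing (ChIP-seq) in whole larvae of the third stage (L3) of Caenorhabditis elegans. The strain, OP75, has the genotype unc-119(ed3) III; wgIs75, and its wgIs75 transgene encodes ELT-3 fused at the C terminus to GFP and FLAG. Larvae of mixed sex were used, and the data are 2 biological replicates of this 1 group, with no second strain, stage or treatment. Since the chromatin came from whole animals and from an added, tagged copy of the protein, the peaks give neither the tissue in which a site was bound nor the occupancy of the untagged protein. Each peak carries a signal value from the authors' peak caller, on a scale not given in the sources used here. Read numbers are not used here, depth is unknown, and the number of peaks sets the precision.

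GATA factors are zinc finger proteins that bind short DNA sequences built around the letters of their name. In worms they are known above all for specifying and maintaining the endoderm and the epidermis, and ELT-3 is an epidermal member of the family whose targets are thought to include genes of the cuticle, of stress responses and of metabolism. Worm genes are compact and many face away from a neighbour across a short stretch of DNA, so that 1 bound position can lie upstream of 2 genes.

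A GATA site was taken as TGATAA or TGATAG or AGATAA or AGATAG on either strand, within 100 bases on either side of the summit, and sites that overlap were each counted. The following windows are given to show what the strongest peaks with such sites looked like, how a peak crowded with them looked, and how the 3 strongest peaks without any looked. They are plus-strand sequences of the WBcel235 assembly (RefSeq copy, the same assembly as ce11), written 5′ to 3′. Capitals mark GATA sites in the first 5 sequences, where a site on the minus strand reads as TTATCA or CTATCA or TTATCT or CTATCT, and mark GAGAGA or GAGACG in the last 3, which hold no GATA site. The windows are chrIII:6396592-6396792 (oatr-1), chrIV:8793259-8793459 (C33D9.3), chrV:12553457-12553657 (F45D3.4), chrIII:15324-15524 (H10E21.1 and nhr-80), chrIII:1289218-1289418 (fbxa-50), chrII:8561379-8561579 (iff-2 and F54C9.14), chrIII:10759152-10759352 (tasp-1 and K01G5.10) and chrII:10563500-10563700 (cdc-48.1).
oatr-1: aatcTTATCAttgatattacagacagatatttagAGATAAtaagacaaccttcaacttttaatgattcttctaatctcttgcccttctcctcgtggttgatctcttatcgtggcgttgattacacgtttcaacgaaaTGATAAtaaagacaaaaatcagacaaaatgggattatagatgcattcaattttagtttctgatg
C33D9.3: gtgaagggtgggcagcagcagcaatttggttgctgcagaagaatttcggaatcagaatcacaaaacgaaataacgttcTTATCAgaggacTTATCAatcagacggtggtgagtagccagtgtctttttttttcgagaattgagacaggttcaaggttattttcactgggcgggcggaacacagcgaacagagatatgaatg
F45D3.4: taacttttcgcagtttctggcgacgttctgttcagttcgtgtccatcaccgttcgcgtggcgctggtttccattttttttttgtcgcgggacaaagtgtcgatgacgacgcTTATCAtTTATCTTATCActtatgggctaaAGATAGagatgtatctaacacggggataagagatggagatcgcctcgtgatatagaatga
H10E21.1 and nhr-80: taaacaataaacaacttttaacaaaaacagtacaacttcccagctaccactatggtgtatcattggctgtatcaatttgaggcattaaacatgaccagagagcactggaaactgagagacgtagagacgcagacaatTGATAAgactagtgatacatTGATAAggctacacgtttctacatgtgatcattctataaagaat
fbxa-50: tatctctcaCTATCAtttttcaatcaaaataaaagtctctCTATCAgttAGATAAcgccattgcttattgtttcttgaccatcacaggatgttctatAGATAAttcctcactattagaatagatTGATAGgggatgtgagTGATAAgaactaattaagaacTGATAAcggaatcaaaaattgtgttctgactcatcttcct
iff-2 and F54C9.14: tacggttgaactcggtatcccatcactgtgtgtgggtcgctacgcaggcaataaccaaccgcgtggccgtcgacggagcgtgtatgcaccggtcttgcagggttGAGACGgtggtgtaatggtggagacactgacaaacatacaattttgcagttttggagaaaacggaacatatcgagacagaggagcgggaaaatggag
tasp-1 and K01G5.10: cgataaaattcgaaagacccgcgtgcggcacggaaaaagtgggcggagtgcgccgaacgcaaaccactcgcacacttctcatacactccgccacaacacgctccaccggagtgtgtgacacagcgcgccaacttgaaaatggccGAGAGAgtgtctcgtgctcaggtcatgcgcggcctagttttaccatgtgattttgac
cdc-48.1: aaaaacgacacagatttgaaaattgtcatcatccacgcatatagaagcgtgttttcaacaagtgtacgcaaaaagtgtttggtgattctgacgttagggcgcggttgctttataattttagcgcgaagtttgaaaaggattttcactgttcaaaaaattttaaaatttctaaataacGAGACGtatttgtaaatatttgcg

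The window of F45D3.4 shows a joined arrangement in which 2 sites share a base (the unbroken capitals in its middle), and those of oatr-1 and fbxa-50 show sites on both strands. In the window of fbxa-50, 7 sites are spread from end to end. The windows of iff-2, tasp-1 and cdc-48.1 come from strong peaks without a GATA site, and each holds a single GA-rich word. Such words do not set these windows apart. That of H10E21.1 and nhr-80 holds both words and that of fbxa-50 holds GAGAGA, not marked there. The next strongest peak without a GATA site, at rpl-20 and Y17G9B.5 (signal 63.2, window not shown), holds neither word.

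The strongest member of all was upstream of oatr-1, which encodes ornithine aminotransferase, a mitochondrial enzyme of ornithine and proline metabolism. Its signal was 99.6 in the pooled data, with 59.3 in the replicate 1 list and 39.1 in the replicate 2 list, and its summit lay 510 bases before the start. C33D9.3, a predicted C2H2 zinc finger protein, had 97.6 (66.2 in replicate 1 and 31.2 in replicate 2), and F45D3.4, an uncharacterized protein, had 90.7 (59.9 and 32.9 in replicates 1 and 2). Both replicate lists therefore held all 3 of these peaks. The lists need not share a scale (the median signal of all 30000 regions was 8.18 in replicate 1 and 5.91 in replicate 2), so a larger value in one does not show more binding.

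Several of the next peaks lay between pairs of genes. The peak between H10E21.1, annotated as a transposase, and nhr-80, a receptor of the nuclear hormone family that controls desaturase genes, had a signal of 87, with 44.5 in replicate 1 and 41.4 in replicate 2. That of iff-2, a translation factor of the eIF5A family, and F54C9.14 had 86.5, with 55.2 and 27.6 in replicates 1 and 2. That of tasp-1, a homologue of the protease taspase, and K01G5.10 had 79.6, with 37.2 and 40.2. The histone H4 gene his-37 had the same signal of 79.6, with 44.9 and 29.6, a single GATA site, and a summit 62 bases from its start. The peak of cdc-48.1, which encodes an AAA ATPase that extracts proteins for degradation, had 69, with 34.3 and 33.8. ZC434.9, a protein with an ShKT domain, had 64.7, with 36.6 and 26.9, and the pair of rpl-20, a ribosomal protein gene, and Y17G9B.5 had 63.2, with 34.2 and 34.

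The remaining peaks among the 20 strongest had signals from 55.3 to 60.9. They lay upstream of F21F3.7, of dpyd-1 (dihydropyrimidine dehydrogenase, which starts pyrimidine breakdown), of mml-1 (a Mondo-type bHLH transcription factor) and of dmd-7 (a DM domain protein). Others were upstream of dnj-7 (a J domain chaperone), of srlf-7 with C42D4.13, of sur-5 (an acetoacetyl-CoA synthetase), of dpf-3 (a dipeptidyl peptidase), of Y41C4A.12 (an exocyst component) and of serp-1.1 (a stress-associated protein of the endoplasmic reticulum). Of these 20 strongest peaks, 6 held no GATA site, namely those of iff-2, tasp-1, cdc-48.1, rpl-20, dpf-3 and serp-1.1.

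Signals of intergenic promoter peaks covered much the same range as those of the other classes. Their median was 36.5 (quartiles 32.3 and 42.5, range 29.5 to 99.6), against 37.4 for distal peaks (33 and 46.3, highest 133) and 36.5 for intronic peaks (32 and 45.5, highest 92.5). Of the 231, 113 (48.9%) lay above the median of the IDR list, which was 36.8, against 135 of 259 distal peaks (52.1%) and 102 of 215 intronic peaks (47.4%). The odds ratio was 0.88 against distal peaks (interval 0.607 to 1.27) and 1.06 against intronic ones (0.719 to 1.57), and neither difference passed the test (two-sided Fisher exact test, adjusted p = 0.79 and 0.971 over 15 tests). Of the 4554 regions of the pooled list that met the position rule, peaks and background together, 5.07% were in the IDR list. The share was lower over all regions of the pooled list, by the list sizes given with the processing. This difference was not tested.

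**Figure D1:**
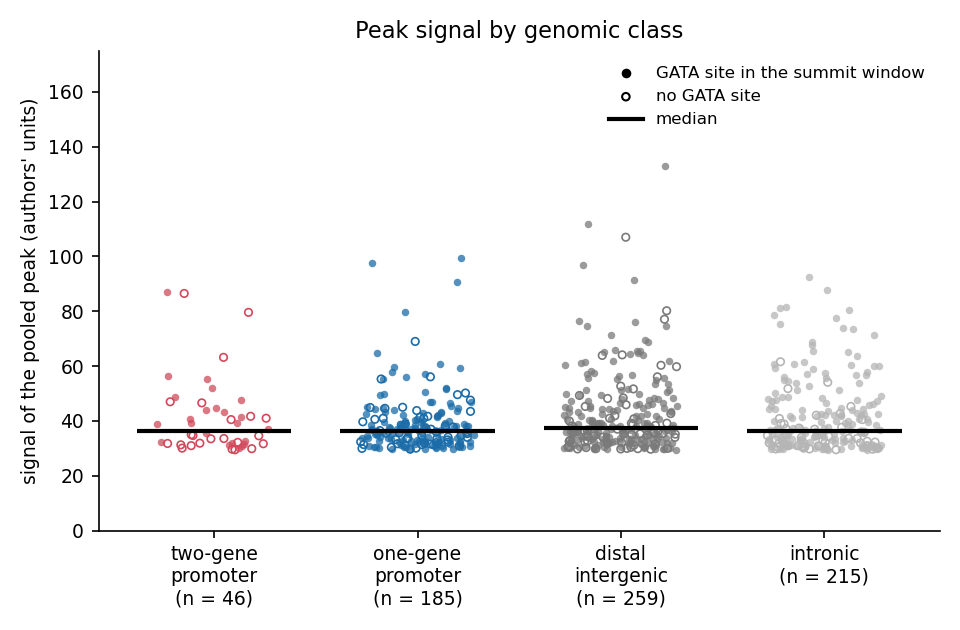
Signal of each peak (vertical axis, the authors' units, linear from 0) for two-gene and one-gene promoter peaks, distal intergenic peaks and intronic peaks. Each point is 1 peak, filled where the summit window held a GATA site and open where it did not; black lines are medians, which lie between 36.3 and 37.4 in all 4 groups.

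Member summits lay more densely near starts than farther out. The median distance to the nearest start was 271 bases (quartiles 132 and 564), from 2 bases at hsp-3 to 993 at C01B10.3. Of the 231 summits, 50 (21.6%, interval 16.5 to 27.5) lay within 100 bases of a start, a range that holds 14.7% of all bases meeting the rule, and 158 (68.4%, 62 to 74.3) lay within 500 bases, which hold 60.3%. Per megabase of such DNA there were 27.6 members within the first 100 bases and 16.4 in the last 100. Annotated starts of worm genes can lie downstream of where transcription begins because many transcripts are trans-spliced, so these distances are to the annotated start.

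**Figure D2:**
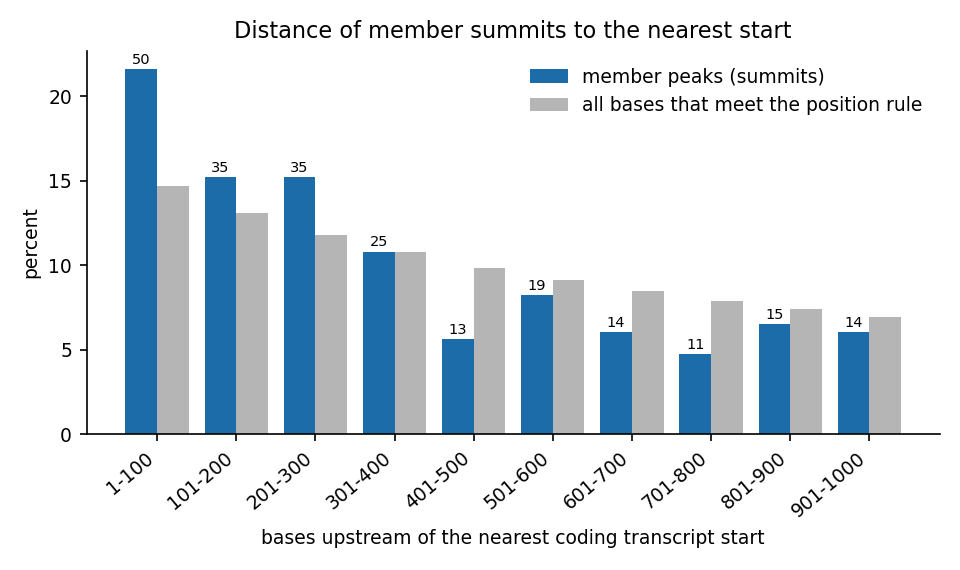
Share of the 231 member summits (blue, with the number of members above each bar) and share of all bases that meet the position rule (grey) in steps of 100 bases upstream of the nearest coding transcript start. The blue bar is higher than the grey one in the first 3 steps, at 21.6% against 14.7% in the first.

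The 4 summits that lay within 10 bases of a start were at hsp-3 (2 bases), Y102A11A.5 (5 bases), xbp-1 and cox-5B (8 bases each), named after their values were seen. hsp-3 encodes a BiP chaperone of the endoplasmic reticulum, with a signal of 33.2, and xbp-1 encodes the transcription factor of the unfolded protein response, with 34.1. cox-5B, a subunit of cytochrome c oxidase, had 34.7. At the far edge of the rule, the peaks of F16G10.14, rhy-1 and C01B10.3 lay 987, 990 and 993 bases from their starts, with signals of 31, 46.8 and 43.8. Just outside it were peaks 1011, 1040 and 1055 bases from a start, with signals of 30.3, 38.4 and 34.5.

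The median signal was 35.9 for the 85 members within 200 bases of a start, 37 for the 73 farther out up to 500 bases and 36.7 for the 73 beyond 500 bases. A GATA site was present in 57 (67.1%), 46 (63%) and 52 (71.2%) of these, with intervals that overlap (56 to 76.9, 50.9 to 74 and 59.4 to 81.2). GAGAGA was present in 40 (47.1%), 21 (28.8%) and 22 (30.1%), and this gradient was not tested.

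GATA sites were frequent at the summits. Of the 231 members, 155 (67.1%, interval 60.6 to 73.1) held at least 1 GATA site, where 74.3% of all peaks in the IDR list did. The share was 43.1% among the 4323 regions of the pooled list that met the position rule but were not in the IDR list, and 38.9% in windows of the same length 271 bases upstream of all 19973 protein-coding genes. Unlike member summits, these upstream windows were not required to lie outside protein-coding genes. The sites were concentrated at the summit itself: in windows 500 bases towards the nearest gene 94 members held a site (40.7%), and in windows 500 bases away from it 76 did (32.9%). On the gene side, 93 members had a site at the summit alone and 32 in the flank alone (exact McNemar test, two-sided, p = 4.36e-08, adjusted over 3 tests 6.55e-08). On the far side these numbers were 104 and 25 (same exact test, p = 1.20e-12, adjusted 3.59e-12). The test treats peaks as units, and they are not replicates of an animal. For the 158 members within 500 bases of a start, the gene-side window was centred at or past that start. It can thus hold gene sequence, as the far window can where a neighbouring gene is close, and base composition was not matched. The ratio of summit-alone to flank-alone members, 2.91 on the gene side, was 5.35 when the peaks were taken from replicate 1 alone and 2 when they were taken from replicate 2 alone, and passed the exact test in both (adjusted p = 3.11e-13 and 7.13e-04). On the far side, 4.16 became 5.50 and 2.93.

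The 155 members with a site held 360 sites, from 1 to 7 each with a median of 2. TGATAA was the commonest, with 189 sites (52.5%), followed by AGATAA with 90 (25%), AGATAG with 48 (13.3%) and TGATAG with 33 (9.17%). TGATAA was present in 52.8% of members, against 23.7% of below-threshold regions under the same rule, and TGATAG in 11.3%, against 8.67%. The site nearest the summit had its midpoint a median of 26.5 bases away (quartiles 10.5 and 43.5), and in 125 of the 155 peaks (80.6%) it was within 50 bases. Neighbouring sites whose starts lay 5 bases apart on 1 strand, the joined form seen at F45D3.4, occurred in 16 members (6.93%, interval 4.01 to 11), against 11 distal peaks (4.25%, 2.14 to 7.47), 11 intronic peaks (5.12%, 2.58 to 8.97) and 15 below-threshold regions (0.347%, 0.194 to 0.572).

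Where a peak had 1 gene, the nearest site faced away from it more often than towards it. It lay on the strand opposite to the gene in 79 of 132 peaks (59.8%, interval 51 to 68.3) and on the strand of the gene in 53 (exact binomial test, two-sided, p = 0.0292, adjusted 0.0292). By the same exact test the call was lost in peaks from replicate 2 alone (57.9%, adjusted p = 0.122), within 50 bases of the summit (56.9%, p = 0.198), for TGATAA alone (53.9%, p = 0.488) and in peaks above the list's median signal (57.4%, p = 0.275). Over all 360 sites, 124 of the 183 on the far side of the summit lay on the strand opposite to the nearest gene, as did 85 of the 177 on the gene side, a split noticed after the data were seen and not tested.

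**Figure D3:**
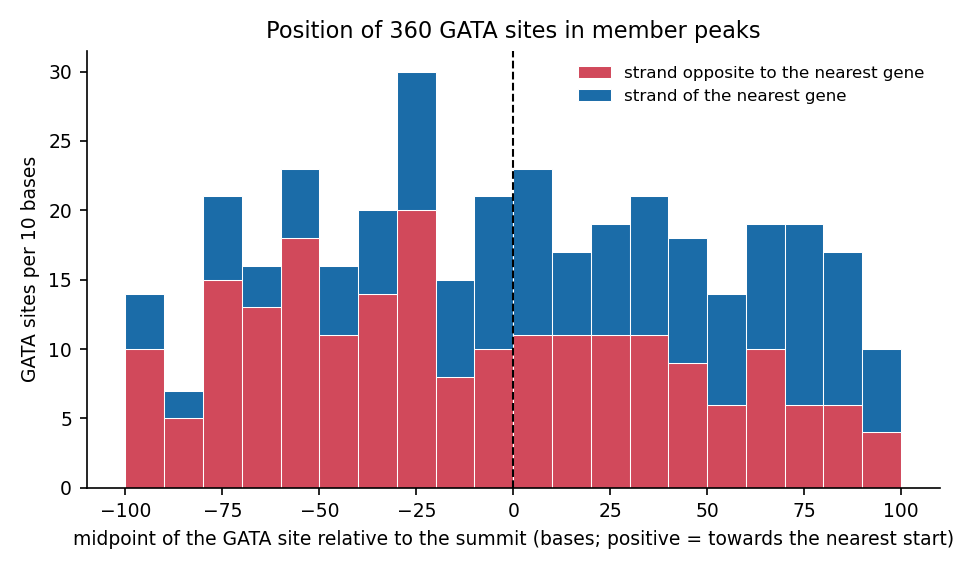
Number of GATA sites per 10 bases (vertical axis) by the distance of the site's midpoint from the summit in bases, positive towards the nearest start, for the 360 sites of member peaks. Red parts of the bars are sites on the strand opposite to the nearest gene and blue parts sites on its strand; 200 of the sites lie within 50 bases of the summit, and 124 of the 183 sites left of it are red.

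Members with 3 or more sites had the highest median signal. The median signal was 39.1 for the 57 members with 3 or more sites, 36.3 for the 64 with 2, 34.3 for the 34 with 1 and 34.9 for the 76 with none. These medians are a description over peaks of 1 list. The share of members that overlapped the strongest regions of both replicates (as many from each as the IDR list holds) was 57.9%, 35.9%, 23.5% and 36.8% in the same order, so the lowest share was in members with 1 site. fbxa-50, an F-box family gene, had the most sites, 7 with a signal of 37.2 (27.1 in replicate 1 and 9.37 in replicate 2), and R10D12.1, a predicted transporter, had 6 with a signal of 35.4. Those with 5 were ver-3 (a VEGF receptor-like kinase, signal 51.9), aprt-1 (adenine phosphoribosyltransferase, 38.9) and F16G10.14 (31). Of these 5 peaks, that of ver-3 alone had a signal above 50.

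The GATA share of intergenic promoter peaks was the lowest of the position classes, but not beyond the error of this number of tests. It was 67.1%, against 76.1% in distal peaks (197 of 259; odds ratio 0.642, interval 0.423 to 0.972) and 77.7% in intronic peaks (167 of 215; 0.586, 0.375 to 0.913). The two-sided Fisher exact test gave p = 0.0344 against distal peaks and p = 0.0149 against intronic peaks, or 0.172 and 0.112 adjusted over the 15 tests between classes. In peaks taken from replicate 2 alone both exact tests passed (odds ratios 0.519 and 0.498, adjusted p = 0.00811 for each). In peaks from replicate 1 alone neither did (0.827 and 0.882, exact test, adjusted p = 0.803 for each). Among GA-rich words, GAGAGA was present in 83 members (35.9%), against 18.4% of below-threshold regions, and GAGACG in 52 (22.5%), against 9.21%. Both words were known from earlier results of the whole list, so these higher shares are a description and no independent support. Neither word passed the exact test against distal peaks (35.5% and 15.8%; adjusted p = 0.991 and 0.231) or intronic peaks (32.6% and 17.2%; adjusted p = 0.79 and 0.412). Of all 15 Fisher exact tests, 3 had an unadjusted p under 0.05 and 0 an adjusted one.

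**Figure D4:**
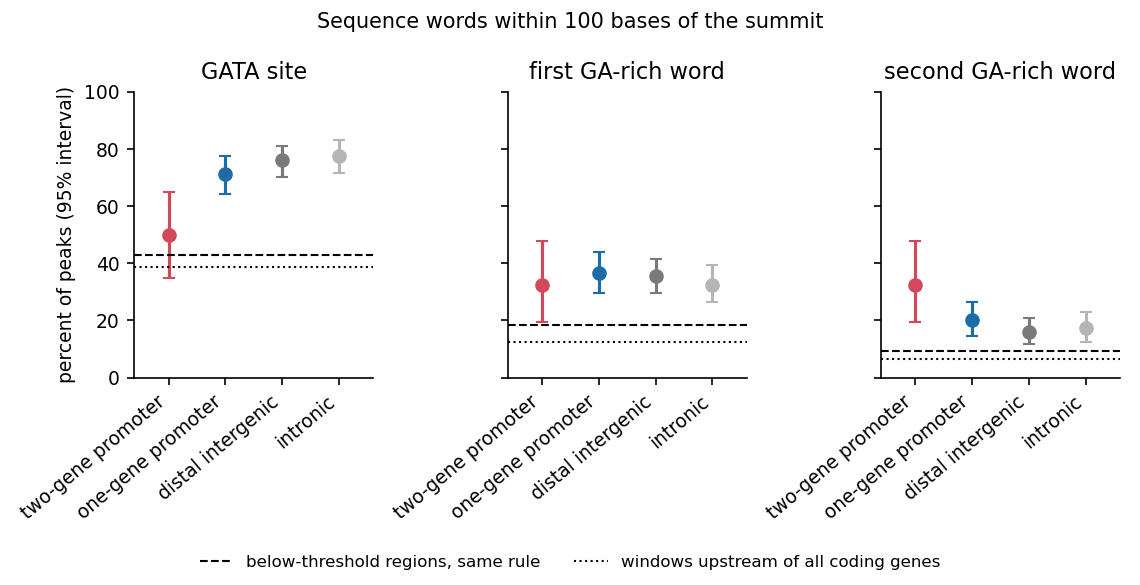
Share of peaks with a GATA site, with GAGAGA (first GA-rich word) and with GAGACG (second GA-rich word) in the summit window, as points with 95% exact intervals for two-gene and one-gene promoter peaks, distal intergenic peaks and intronic peaks. Both GA-rich words were known from earlier results of the whole list. Dashed and dotted lines give the shares in below-threshold regions under the same position rule (43.1%, 18.4% and 9.21%) and in windows upstream of all coding genes (38.9%, 12.5% and 6.35%). The latter windows were not required to lie outside protein-coding genes. The lowest point for GATA sites is that of two-gene promoters at 50%.

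Of the 231 members, 46 (19.9%, interval 15 to 25.7) were in the windows of 2 or more genes and 185 in that of 1. This share was 14% (13 to 15.1) among below-threshold regions under the same rule and 11.6% among all bases that meet it. Of the 46, 43 lay between divergent genes, and the other 3 were at sec-61.G with F32D8.13, at zip-12 with Y75B8A.63 and at 3 genes of the H40L08 cluster. The divergent starts were 145 to 1768 bases apart, with a median of 787, and the distance to the nearer start was a median of 32.4% of that gap. The nearer start is never past the middle of the gap, so this share has an upper limit by definition. In 13 of the 43 (30.2%) the summit lay within 100 bases of a start. Two-gene members lay a median of 172 bases from the nearest start, against 347 for one-gene members. Their distance is the smallest of those to several starts, so a shorter distance is in part built into this comparison. No reference for it was computed.

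The strongest divergent peaks after those of nhr-80, iff-2, tasp-1, rpl-20 and srlf-7 were at T07D3.9 with T07D3.2 (signal 55.3), at gst-42, a maleylacetoacetate isomerase of tyrosine breakdown, with D1053.2 (52), and at C28H8.5 with F01F1.14 (48.9). Those at K10D3.6 with the glutamate receptor gene glr-3 (47.6) and at rpl-15 with K11H12.8 (47) followed. Some divergent pairs joined genes with related products: hsp-60 and Y22D7AL.10 encode the large and the small subunit of the mitochondrial chaperonin, and shared a peak with a signal of 29.9 and no GATA site. trap-2, a subunit of the translocon-associated complex, and ile-2, a lectin of the secretory pathway, shared one of 41, with 26.5 and 15.8 in replicates 1 and 2. nlp-31 and nlp-34, epidermal antimicrobial peptide genes, shared one of 44.8 with 4 GATA sites, 50 bases from nlp-31 and 871 from nlp-34. These 3 pairs were chosen after their values were seen.

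Two-gene and one-gene promoters were compared for their GATA sites, and the difference did not pass the test after adjustment. A site was present in 23 of 46 (50%, interval 34.9 to 65.1), against 132 of 185 (71.4%, 64.3 to 77.7), an odds ratio of 0.402 (0.197 to 0.823; two-sided Fisher exact test, p = 0.00823, adjusted 0.112). In peaks from replicate 1 alone the odds ratio was 0.342 and in those from replicate 2 alone 0.636 (exact test, adjusted p = 0.102 and 0.575). Within 200 bases of a start the shares were 12 of 27 (44.4%) at two-gene and 45 of 58 (77.6%) at one-gene promoters, and farther out up to 500 bases they were 8 of 16 (50%) and 38 of 57 (66.7%). Beyond 500 bases the order was the other way, at 3 of 3 two-gene and 49 of 70 one-gene promoters (70%). Without the peaks of ribosomal protein genes, an alternative chosen after seeing the data, the odds ratio was 0.446 (20 of 37 against 132 of 182, exact test, adjusted p = 0.238). Signal did not differ beyond its error: the medians were 36.3 at two-gene and 36.5 at one-gene promoters, and 23 of 46 (50%) against 90 of 185 (48.6%) lay above the list's median (odds ratio 1.06, 0.525 to 2.12, exact test, adjusted p = 0.991). GAGACG was present in 15 of 46 (32.6%), against 37 of 185 (20%), without passing the exact test (odds ratio 1.94, 0.874 to 4.14, adjusted p = 0.231).

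The 76 members without a GATA site included some of the strongest, from iff-2 at 86.5 downwards. GAGAGA was present in 30 of them (39.5%) and GAGACG in 21 (27.6%), against 34.2% and 20% of the 155 with a site. GATA in other surroundings was held by 45 of the 76 (59.2%). No background share was computed for this short word, so that count cannot be read as an excess. The median share of G and C in the windows of the 76 was 44.8%, against 38.3% in members with a site. In the replicate lists the median signals of the 76 were 19.6 in replicate 1 and 16.1 in replicate 2, against 23.2 and 14.2 for members with a site, so that members without a site were lower in the first list and higher in the second. Of the 77 members that were among the strongest of replicate 1 alone 58 held a site (75.3%, interval 64.2 to 84.4), of the 50 of replicate 2 alone 27 did (54%, 39.3 to 68.2), and of the 92 of both 64 did (69.6%, 59.1 to 78.7). The share was thus highest in members strong in replicate 1 alone, with intervals that overlap, and what differed between the replicates was not tested.

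**Figure D5:**
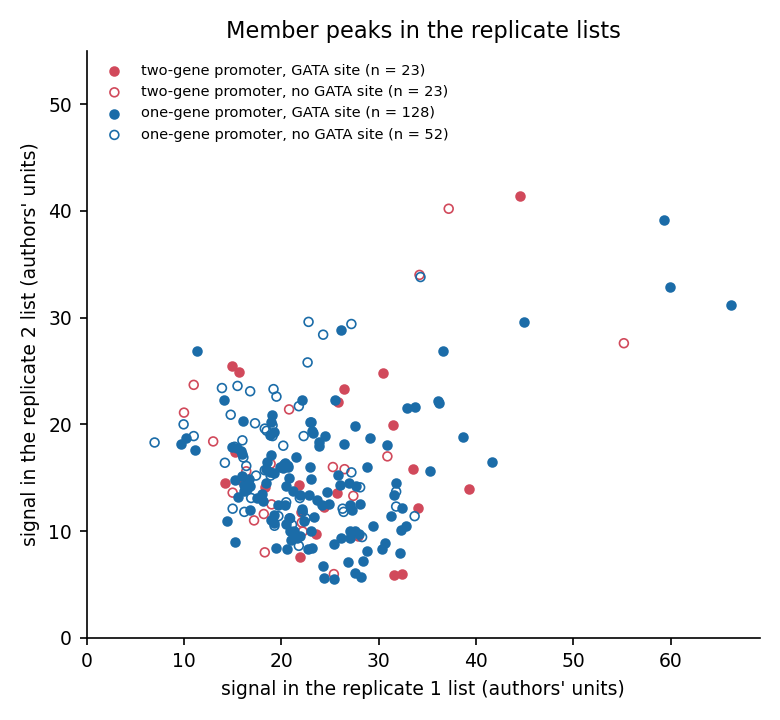
Signal of member peaks in the replicate 1 list (horizontal axis) and in the replicate 2 list (vertical axis), in the authors' units, for the members that held a summit of both lists. Colours separate two-gene (red) from one-gene (blue) promoters and filled points have a GATA site; the 2 lists' values scatter widely, and the points above 50 in replicate 1 are those of C33D9.3 (66.2), F45D3.4 (59.9), oatr-1 (59.3) and iff-2 with F54C9.14 (55.2).

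A summit of both replicate lists lay inside 226 of the 231 members (97.8%). Against stricter lists, 169 (73.2%) overlapped the strongest regions of replicate 1, as many as the IDR list holds, 142 (61.5%) those of replicate 2, 92 (39.8%, interval 33.5 to 46.5) both and 12 neither. The share in both was 46.7% for distal peaks (exact test, odds ratio 0.755, 0.519 to 1.10, adjusted p = 0.36) and 45.1% for intronic peaks (0.805, 0.543 to 1.19, adjusted p = 0.547). Two-gene and one-gene promoters had 39.1% and 40% (0.964, 0.466 to 1.96). None of these differences passed the two-sided Fisher exact test.

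The members reached 275 of 19973 protein-coding genes (1.38%). Of the 36 gene lists, 30 grouped genes by function and 6 held markers of tissues, and 74 of the 275 genes were in at least 1 list. The 6 marker lists, for epidermis, intestine, body wall muscle, pharynx, neurons and germline, had 0 members among 210 genes, which allows shares of up to 6.52% (germline) to 10.7% (epidermis and pharynx) in a list. Only sequence names were available for 98 of the genes reached (35.6%), against 45.3% of all coding genes. For 3 genes there were 2 members each: F26A3.4, a predicted phosphatase (46.6 and 38.9), nhr-3, a nuclear hormone receptor (37.5 and 35.7), and ZK484.6 (32.9 and 29.9). In each gene 1 of the 2 lacked a summit of a replicate list. These were F26A3.4 at 46.6 (replicate 1), nhr-3 at 37.5 and ZK484.6 at 29.9 (replicate 2 for both). The 2 peaks of nhr-3 also overlapped each other, so they need not be separate bound positions.

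Genes of the cytosolic ribosome were reached most often among the lists of more than 50 genes. Of 82 such genes 12 had a member (14.6%, interval 7.80 to 24.2), where 1.38% of all genes did. The peaks were upstream of rpl-20 (63.2), rpl-3 (50.2), rpl-35 (49.6), rpl-15 (47), rpl-1, rps-15, rps-12, rpl-7, rps-20, rps-1, rpl-7A and rps-24, with the last at 29.7. Of the 12 peaks 9 were at two-gene promoters and 3 held a GATA site, those of rpl-1, rps-15 and rpl-7A. In the replicate lists, rpl-3 had 22.8 and 29.6 and rpl-35 had 22.7 and 25.8 in replicates 1 and 2, whereas rpl-1 had 32.4 and 5.97. Mitochondrial ribosomal protein genes had 0 of 70 and splicing genes 0 of 75, which allows shares of up to 4.29% and 4%.

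Enzymes of amino acid metabolism had 5 members among 54 genes (9.26%, interval 3.08 to 20.3). Besides oatr-1 they were cth-1 (cystathionine gamma-lyase, signal 43.4), fah-1 (fumarylacetoacetase, the last step of tyrosine breakdown, 39.6), ahcy-1 (adenosylhomocysteinase, 36) and metr-1 (methionine synthase, 31.9). All except that of ahcy-1 held 2 or 3 GATA sites. A list of nucleobase salvage and breakdown genes, chosen after their values were seen, had 3 of 13 (23.1%), each with 4 or 5 sites: dpyd-1 (59.5), aprt-1 (38.9) and hprt-1 (hypoxanthine phosphoribosyltransferase, 38.3).

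Transcription factors matched by name were reached at shares whose intervals include the 1.38% of all genes, but the name patterns missed some that were reached. Nuclear hormone receptors had 7 members among 270 genes (2.59%, interval 1.05 to 5.27), led by nhr-80 (87), nhr-119 (44.4), nhr-258 (43.9) and nhr-135 (43.5), and 6 of the 7 held a GATA site, as did 67.1% of all members. Other transcription factors had 6 among 286 (2.10%, 0.774 to 4.51), namely mml-1 (59.3), dmd-7 (57.8), hlh-11 (40.6), cebp-1 (35.8), zip-12 and jun-1. hlh-11 and cebp-1, a C/EBP factor, lacked a site. The name pattern missed xbp-1, which was reached as well (34.1). In the TGF-beta pathway that sets body size, 2 of 19 genes were reached (10.5%, 1.30 to 33.1), sma-10 (a membrane protein that assists the receptors, 38.8) and sma-3 (a Smad, 36.9), with 3 and 2 sites.

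Among lists of genes known from the epidermis, the share with a member ranged from 0 to 13.6%, where 1.38% of all genes had one. Antimicrobial peptide genes of the epidermis had 3 of 22 (13.6%, interval 2.91 to 34.9), namely nlp-33, nlp-31 and nlp-34. The peak of nlp-33 (46.6) lay 31 bases from its start and held no GATA site, and nlp-31 and nlp-34 shared 1 peak. These 3 genes thus rest on 2 peaks, whereas the interval treats them as 3 separate counts and so overstates its precision. Cuticle collagens had 4 of 176 (2.27%, 0.623 to 5.72, which includes the share of all genes), col-149 (38.3), col-42 (33.1), col-169 (32.3) and dpy-2 (30.6), of which col-149 and dpy-2 held a site. Genes of the molting cycle and apical matrix had 0 of 100 (up to 3%), and those of the heterochronic pathway 0 of 15 (up to 20%). Of 85 genes related to hedgehog or patched, 2 had a peak (2.35%, 0.286 to 8.24), ptr-15 (31.8) and ptr-13 (32.3), with 3 sites at ptr-13 and 2 at ptr-15. Genes of epidermal junctions and cytoskeleton had 1 of 42 (act-2) and genes of osmotic stress 1 of 11 (osm-11, a Notch ligand, 32.6).

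For detoxification genes, proteases, transporters, ion channels, lipid enzymes, kinases and glycosylation genes matched by name, the interval of the share includes the 1.38% of all genes. Detoxification genes had 3 of 185 (1.62%, interval 0.336 to 4.67), gst-42 (52), cyp-29A4 (43) and ugt-60 (30.6), all with 2 sites. Proteases and inhibitors had 3 of 159 (1.89%, 0.391 to 5.41; dpf-3, cpz-1 and cpl-1) and membrane transporters 2 of 169 (1.18%, 0.144 to 4.21; pgp-10 and swt-3). Ion channels had 2 of 226 (0.885%, 0.107 to 3.16; best-14 and best-8) and lipid enzymes 2 of 130 (1.54%, 0.187 to 5.45; acox-1.1 and acdh-7). The list of kinases and phosphatases had 5 of 135 (3.70%, 1.21 to 8.43), of which 2 were taken in by name and are neither (cdc-48.1 and cdr-7); the others were ver-3, nekl-2 and pkc-3. Glycosylation genes had 2 of 70 (2.86%, 0.348 to 9.94; hst-2 and sqv-3). Single members fell to the lists of translation factors (iff-2), tRNA synthetases (cars-1, 44.6), histones (his-37), the respiratory chain (cox-5B), the V-ATPase (vha-1) and the proteasome (rpn-3, 31.7). Matching by name missed some genes that were reached, so the shares of lists can be too low and the intervals hold for the matched genes alone. Missed kinases and phosphatases included F26A3.4 (46.6), ikke-1 (41), T12G3.2 (38.8) and smg-1 (31.3). Also among the missed genes were nduf-2.2 (30.3) and Y38E10A.24 (31.3) of complex I. Others were acl-2 (a putative acyltransferase, 33.4), fdgt-1 (a glucose transporter, 49.9) and fbxl-2 (an F-box protein, 39.1). The large families of chemoreceptors (4 of 1364, 0.293%), F-box and related proteins (1 of 438, 0.228%) and C-type lectins (1 of 240, 0.417%) were below the share of all genes, although the interval of the lectins (0.0105 to 2.30) includes it. Of the 4 chemoreceptor entries srlf-7 was taken in by name only, and str-7 and srh-282 shared their peaks with cth-1 and sma-10.

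Genes of protein import and folding in the endoplasmic reticulum were noticed among the members and listed after their values were seen, so their count is a description. Of 39 genes 9 had a member (23.1%): cdc-48.1 (69), dnj-7 (57.3), serp-1.1 (55.3), sec-61.G (the gamma subunit of the translocon, 41.7), ile-2 and trap-2 (41), uggt-2 (35.8), xbp-1 (34.1) and hsp-3 (33.2). The peaks of dnj-7 and uggt-2 held GATA sites and those of the other 7 genes did not. A further list made in this way, of an arm of epidermal immunity, had 2 of 17 (11.8%): nipi-3 (a Tribbles-type pseudokinase, 35.9) and cebp-1 (35.8), and neither peak held a site. In the replicate lists they had 17.3 and 20.1 (nipi-3) and 13.9 and 23.4 (cebp-1) in replicates 1 and 2.

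Some summits that lay outside protein-coding genes were inside non-coding ones. This was so for 25 of the 231 members (10.8%), of which 23 were in genes annotated as ncRNA, 2 in snRNA-type spliced leader genes (sls-2.8, between Y75B8A.23 and tim-1, and sls-2.4, near egg-5), 1 in a tRNA gene and 1 in a lincRNA gene, some in more than 1. The share of other regions or bases inside non-coding genes was not computed, so the 10.8% cannot be read as particular to members. The strongest of the 25 was in C42D4.17, between srlf-7 and C42D4.13, at 56.3. Members were spread over all 6 nuclear chromosomes, from 1.66 per megabase on chromosome IV to 3.18 on chromosome I. A GATA site was present in 86.7% of members on chromosome II, 79.5% on V, 67.3% on X, 65.5% on IV, 58.3% on I and 50% on III. On chromosome III 15 of 36 members (41.7%) were at two-gene promoters, against 3 of 49 (6.12%) on X. These shares rest on 29 to 49 members per chromosome and were not tested. The same shares of below-threshold regions or of bases were not computed per chromosome, so the differences cannot be read as particular to members.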

How the data were processed

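ChIP-seq of tagged ELT-3 in 2 replicates was analysed from the deposited ce11 lists: 1 per replicate, 1 on both pooled, each with 30000 regions of peaks and background, and the IDR list of 774 peaks of 340 bases, which are the 774 strongest pooled regions. Each list gives a signal per region made by the authors' peak caller, and it was used only within a list, for ranking and description. Not given in the sources used here: aligner, caller, IDR threshold, signal scale and depth. A further score column is not explained in the deposited files and was not used, nor were the ce10 lists.

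Summits were placed on Ensembl release 115 genes of WBcel235, which has the ce11 coordinates, and sequence was read from the RefSeq copy of that assembly; gene products are RefSeq's. Replicate signals are those of the strongest replicate summit inside a member. Python 3.11.15, NumPy 2.4.6, pandas 2.3.3, SciPy 1.17.1 and Matplotlib 3.10.9 were used. Shares have 95% Clopper-Pearson intervals, which cover counting error only. Between classes, 15 two-sided Fisher exact tests were adjusted together by the Benjamini-Hochberg method at 0.05, and 3 within-peak tests (exact McNemar and binomial) likewise. Peaks are not replicates: p-values describe these lists, not variation between animals, and classes that share animals and lists are not independent samples. A share of 0 is given with the limit of 3 counts. The scripts were tested on simulated data.

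Members, gene lists, GA-rich words and tests were chosen with earlier results of these data known. Genes named are those at the 20 strongest members, at the 10 strongest divergent members, at the 5 strongest members without a GATA site and the 5 with most sites, up to 4 per list (in some lists all members, beyond this rule, with values known), the nearest and farthest from a start, and those with 2 or more members; the genes at the rule's edge, at the other two-gene members and at summits inside non-coding genes, and any further ones, were named with their values known. Lists were matched by gene name pattern, and genes that a pattern took in wrongly are named as such. Genes that a pattern missed are not counted in the shares. Alternatives were other promoter windows, motif windows and words, other overlap and signal thresholds, other flanks, the stronger IDR peaks and each replicate alone.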

Additional observations from a re-analysis of the deposited data

How the results depend on the processing

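No paired analysis was possible because the 2 samples are replicates of 1 group. Every result was recomputed under the alternatives that bear on it, 215 values in all for 22 results, and 176 of these were taken as unchanged. For tests this means the same direction and side of the threshold, and for shares a value within the interval of the main one. Counts of peaks and genes were taken as unchanged within a set factor of the main value, which is no measure of error. Taking the peaks from each replicate alone (leaving out the other) gave GATA shares of members of 58.9% to 71.5%, odds ratios of 0.519 to 0.827 for GATA sites against distal peaks, 0.498 to 0.882 against intronic peaks, and 57.9% to 64.6% of sites facing away. For odds ratios whose tests passed under none of these alternatives, it gave 0.779 to 1.02 for GAGAGA against distal peaks, 0.965 to 1.14 for signal against intronic peaks and 0.989 to 2.10 for signal at two-gene against one-gene promoters. The GATA share of members was 73.5% in the peaks above the list's median signal, 52.8% in windows of 50 bases on either side of the summit, 52.8% for TGATAA alone (both 122 of 231), 79.7% in windows of 341 bases and 74.1% without chromosomes I and III, an alternative chosen after seeing the data, as was leaving out ribosomal peaks. Two-gene against one-gene promoters passed the test for GATA sites with a window from 2000 bases upstream (odds ratio 0.432, Fisher exact test, adjusted p = 0.0325) and with introns counted as between genes (0.342, 0.0159). The direction of sites lost its call in the peaks above the median signal (57.4%), in the narrower windows (56.9%) and for TGATAA alone (53.9%). Two-gene shares were 12.7% and 29% with windows from 500 and 2000 bases upstream and 14.3% without the 2 chromosomes. The peaks above the median signal held 113 members and 135 genes, the 500-base window 179 genes, and the other 4 chromosomes 168.

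Odds ratios that had not passed a test turned over in these settings. Counting introns as between genes gave 0.983 for GAGACG against intronic peaks, 1.06 for overlap with both replicates and 0.977 for signal, both at two-gene promoters. GAGAGA against distal peaks was 0.976 in the narrower windows and 0.888 in windows of 341, and at two-gene promoters 1.41 in the narrower windows and 1.33 in the peaks above the median signal. Overlap at two-gene promoters was 1.09 in the peaks above the median signal, 1.03 with at least 50% of the peak covered and 2.10 without the 2 chromosomes. Signal against intronic peaks was 0.564 in the peaks above the median signal, 0.706 at the upper quartile and 0.923 without the 2 chromosomes, and signal at two-gene promoters 0.523 and 0.632 with windows from 500 and 2000 bases upstream. The cause of these shifts was not tested. Using the outermost start of each gene changed no result, since a summit outside all genes is nearest to that start. Depth is unknown, and the number of peaks sets the limits.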
